A study of Mus musculus with 30 samples.

Results

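The BCL2 family sets the threshold for apoptosis at the mitochondrial outer membrane, and 10 of its genes are described here across neurons of the female mouse nucleus accumbens. The 10 were taken from 55335 gene rows as those whose Ensembl identifiers map to the symbols Hrk, Bbc3, Bcl2l11, Bad, Bid, Bmf, Bcl2, Bcl2l1, Mcl1 and Bax in the GENCODE M21 annotation, and all 10 passed the filter on low counts. Hrk was chosen by its measured difference between Susceptible and Resilient D2 libraries of these same data, and the other 9 were listed with it as its family. Values from that contrast are therefore given below as a description, with no test.

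BH3-only proteins report damage or loss of trophic signals: Hrk (harakiri, also called DP5), Bbc3 (PUMA), Bcl2l11 (BIM), Bad, Bid and Bmf belong to this class. They bind the guardians Bcl2, Bcl2l1 (BCL-XL) and Mcl1, which otherwise hold the pore-forming effector Bax in check, and pore formation releases cytochrome c and starts the caspase cascade. Hrk is expressed mainly in neurons, where it is known as a gene induced through JNK and c-Jun after withdrawal of nerve growth factor.

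Translating RNA was taken from punches of the nucleus accumbens, a striatal region for reward and motivation, 24 h after a social interaction test. D1-Cre-RT mice gave the libraries of D1 medium spiny neurons and A2A-Cre-RT mice those called D2 here; in both lines Cre, driven from the dopamine D1 or the adenosine A2A receptor gene, switches on the RiboTag allele (RT), whose HA-tagged ribosomes were immunoprecipitated. All mice were female, and each class had 3 conditions, Control, Resilient and Susceptible, the last 2 being mice sorted by social interaction after chronic witness defeat stress, in which a mouse watches the defeat of another. Each of the 6 groups had 5 libraries, each pooled from 4 mice, so that p-values measure the spread between pools. The tagged cells are those with Cre activity, a pool hides differences between its mice, and mouse ages were not given in the sources used here.

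Gene counts ranged from 28996168 to 65882152 per library, and levels are given as CPM, the reads of a gene per 1000000 gene reads of its library after TMM scaling. D2 Susceptible replicates 1 and 2 stood apart: 15822 and 16525 genes had a count, against at least 19440 elsewhere, and their summed levels of 4 epidermal genes (Krt5, Krt14, Krt10, Krt1) were 311 and 514 CPM, against 18.4 to 39.8 CPM in the other libraries, where Krt5 and Krt14 were mostly at 0. D1 Susceptible replicate 1 had 41.2% of its reads outside annotated features and a TMM scaling factor of 0.34, against 0.957 to 1.08 in the others, so its counts carry less depth. The class labels matched their markers (summed Drd1, Pdyn and Tac1, 1524 to 2307 CPM in D1 and 237 to 1639 CPM in D2 libraries; summed Drd2, Adora2a and Penk, 1075 to 2684 CPM in D1 and 4733 to 12517 CPM in D2 libraries), with D2 Resilient replicate 5 mixed at 1639 and 4733 CPM. D2 Control replicate 5 was mixed to a lesser degree, at 1080 and 7129 CPM. The other D2 Control libraries had 291 to 624 and 9568 to 12319 CPM. The summed D2 markers also varied within D1, at 1288 to 2174 CPM (median 1325) in Control and 1282 to 2684 CPM (median 1492) in Resilient. In D1 Susceptible they were at 1075 to 2672 CPM (median 2284). The part of this D2 marker RNA in differences between D1 groups was not tested.

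The start regions of Hrk, Bax and Bid are shown because these genes differed between the classes when averaged over the conditions, Hrk and Bax in one direction and Bid in the other. They did not do so in each condition taken alone. The average also includes the D2 libraries on which Hrk was chosen, so the showing of Hrk here is not free of that choice. Each is the 250 bases before the gene's RefSeq start in GRCm38.p6, on the gene's strand: Hrk at chr5:118169514-118169763 (plus strand), Bax at chr7:45466899-45467148 (minus strand) and Bid at chr6:120916825-120917074 (minus strand). The GENCODE M21 gene of Hrk starts farther upstream, at 118164648, so the Hrk region shown lies inside that gene. Distances to the start below use the RefSeq start. Capitals mark matches to a motif searched on both strands.
Hrk: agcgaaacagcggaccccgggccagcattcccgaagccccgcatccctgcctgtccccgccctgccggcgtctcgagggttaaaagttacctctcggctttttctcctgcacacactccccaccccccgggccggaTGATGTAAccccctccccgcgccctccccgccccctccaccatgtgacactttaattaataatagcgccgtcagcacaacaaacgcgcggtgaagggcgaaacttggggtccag
Bax: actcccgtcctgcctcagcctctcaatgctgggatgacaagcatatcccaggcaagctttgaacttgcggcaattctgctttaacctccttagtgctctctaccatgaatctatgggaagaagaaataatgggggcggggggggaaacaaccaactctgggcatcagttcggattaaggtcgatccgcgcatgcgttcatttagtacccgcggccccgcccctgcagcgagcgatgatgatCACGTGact
Bid: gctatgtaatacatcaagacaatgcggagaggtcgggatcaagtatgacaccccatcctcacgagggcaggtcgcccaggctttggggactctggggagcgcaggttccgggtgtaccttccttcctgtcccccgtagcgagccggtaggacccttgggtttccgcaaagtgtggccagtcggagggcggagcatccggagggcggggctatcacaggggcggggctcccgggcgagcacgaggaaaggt
In the Hrk sequence the capitals mark TGATGTAA, a variant of the ATF site, 114 bases before the start, and this motif was added to the search after the sequence had been seen. It occurred in 0.965% of 32851 RefSeq start regions of the same length. In the Bax sequence they mark the E-box CACGTG, 9 bases before the start, present in 6.02% of regions. The FoxO motif GTAAACA, in 3.17% of regions, was found at Bbc3 and Bcl2l11, and CACGTG also at Bbc3. The cyclic AMP response element TGACGTCA (1.55% of regions) and the AP-1 site TGACTCA (4.46%) were found at none of the 18 start regions of the members. These motifs do not overlap one another in the sequences shown, and the Bid sequence held none of those searched.

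Divided by exon length, the guardians Mcl1 and Bcl2l1 had the highest levels, at 20.95 ± 2.08 and 20.1 ± 1.44 CPM per kilobase (SD, n = 30 libraries). Hrk followed at 15.8 ± 3.67 CPM per kilobase, above every other BH3-only gene: Bad stood at 6.68 ± 1.29, Bbc3 at 4.96 ± 0.937, Bid at 1.23 ± 0.367, Bcl2l11 at 0.253 ± 0.0801 and Bmf at 0.149 ± 0.0897 CPM per kilobase. The effector Bax lay at 9.45 ± 2.27 and the third guardian, Bcl2, at 3.77 ± 0.730 CPM per kilobase. Over the 30 libraries each gene's range overlapped that of its neighbour in this order, except between Bcl2 and Bid and between Bid and Bcl2l11. Taking the longest annotated transcript as the length raised Bad to 11.1 and Bcl2l1 to 35.9 CPM per kilobase, so the order of close neighbours depends on the gene model. Bcl2l11 had 17 to 217 counts per library and Bmf 0 to 106. The single Bmf value of 0, in D2 Control replicate 5, allows up to 0.0455 CPM, a limit that covers counting error only.

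Exons of 3 members overlap a gene on the opposite strand: Bad with Gpr137 over 524 bases, Bid with Bcl2l13 over 628 and Bcl2 with D630008O14Rik over 558. Whether counting used the strand is not given in the sources used here, so reads in those bases could not be assigned with certainty. Bax shares 192 bases with Gm45808, which had 0 counts.

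Hrk (ENSMUSG00000046607, GRCm38 chromosome 5, 118164648 to 118189478, plus strand) was lowest in D1 Control, where the 5 libraries had 66.0, 77.8, 67.2, 73.9 and 75.2 CPM (72.0 ± 5.18, SD, n = 5). D1 Resilient libraries had 85.9, 74.7, 73.6, 85.3 and 81.5 CPM (80.2 ± 5.77), and D1 Susceptible libraries 80.8, 82.1, 91.0, 87.2 and 81.9 CPM (84.6 ± 4.34). All 5 D1 Susceptible values were above all 5 D1 Control values, while the D1 Resilient values overlapped both. In D2 cells the Control libraries had 91.0, 96.1, 90.1, 105 and 93.2 CPM (95.1 ± 6.12), and the Resilient libraries 88.3, 71.5, 87.9, 84.7 and 76.3 CPM (81.7 ± 7.46). The 5 D2 Susceptible libraries had 140, 167, 106, 106 and 102 CPM (124 ± 28.6). The 2 highest of the 30 values belonged to the D2 Susceptible libraries with epidermal RNA, replicates 1 and 2. D2 Susceptible and D2 Resilient, the groups on which Hrk was chosen, did not overlap, which the choice of Hrk favours. By their means the groups ran D1 Control, D1 Resilient, D2 Resilient, D1 Susceptible, D2 Control and D2 Susceptible, and each group's range overlapped that of the next. In pulldown libraries, fewer tagged cells with a transcript and less of it per cell cannot be told apart.

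**Figure D1:**
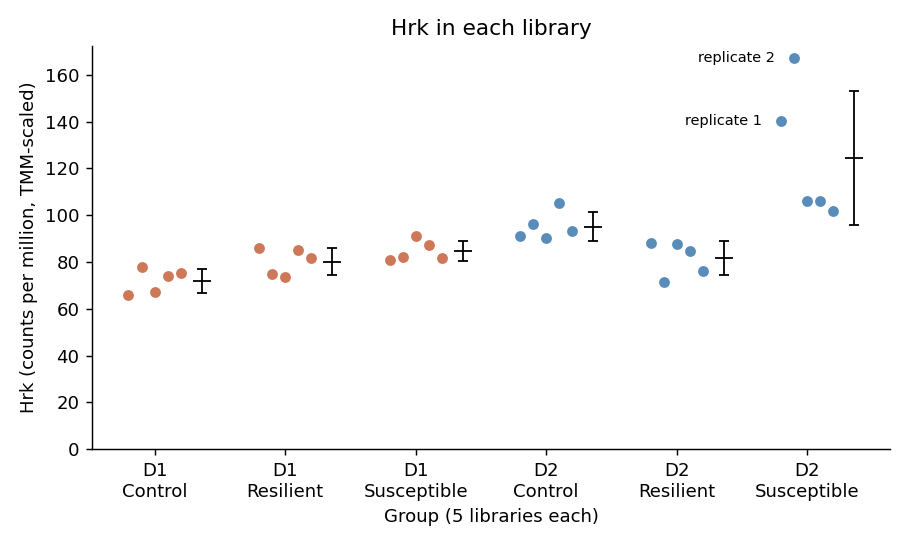
Hrk level (TMM-scaled CPM, linear axis) in each of the 30 libraries by group, each point 1 library and each bar the group mean with its SD over 5 libraries. D1 Control libraries sit between 66.0 and 77.8 CPM and D2 Control libraries between 90.1 and 105 CPM, and D2 Susceptible replicates 1 and 2, at 140 and 167 CPM, are above every other library.

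In Control mice the BH3-only genes Hrk and Bad and the effector Bax were lower in D1 than in D2 cells. These 3 of the 10 members passed edgeR's quasi-likelihood test at an adjusted p under 0.05, a threshold that 8.3% of the 19368 genes tested passed, and in each of the 3 all 5 D1 libraries lay below all 5 D2 libraries, as 11.7% of genes did in one direction or the other. Hrk differed by a log2 of -0.40 (D1 minus D2, SE 0.102), which is 1.32-fold (adjusted p in edgeR = 0.0107). Bax had 10.7, 14.1, 10.2, 12.7 and 12.4 CPM in D1 Control and 16.7, 16.7, 17.2, 23.7 and 15.2 CPM in D2 Control, a log2 difference of -0.58 (SE 0.154, adjusted p in edgeR = 0.0152). Bad, which growth-factor kinases hold inactive by phosphorylation, had 11.99, 16.5, 13.8, 12.5 and 13.1 CPM in D1 Control and 23.6, 18.2, 19.8, 19.3 and 16.8 CPM in D2 Control, a log2 difference of -0.52 (SE 0.157, adjusted p in edgeR = 0.0328). The gap between the classes was narrowest for Bad, whose highest D1 value nearly met the lowest D2 value.

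The other 7 members did not pass in Control. Bbc3, the p53 target, and Bcl2l11, a FoxO target, had log2 differences of -0.41 (SE 0.171, adjusted p in edgeR = 0.162) and -0.41 (SE 0.363, adjusted p in edgeR = 0.628), Bid 0.33 (SE 0.245) and Bmf -0.26 (SE 0.641). Among the guardians, Bcl2 had 0.22 (SE 0.148), Bcl2l1 -0.15 (SE 0.0696) and Mcl1 0.02 (SE 0.0924). The standard errors were largest for Bmf and Bcl2l11, the members with the fewest counts, and the sign for Bmf turned (0.16) without D2 Control replicate 4. The median over the 10 members was -0.33, beside -0.0028 over all genes tested.

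Leaving out 1 library ended several of these calls. Without D1 Control replicate 3 or without D2 Control replicate 4, none of the 3 passed: the edgeR adjusted p became 0.0526 and 0.0530 for Hrk and 0.0713 and 0.0973 for Bax, at log2 differences of -0.36, -0.35, -0.51 and -0.44. Bad also lost its call without D1 Control replicates 1, 4 or 5 or D2 Control replicates 1, 2 or 3, with an edgeR adjusted p of up to 0.127, while Bbc3 gained one without D2 Control replicate 5, the library with mixed class markers (adjusted p in edgeR = 0.0469).

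Markers of other cells moved with the class. In D1 libraries the summed level of 6 endothelial genes was 14.1 to 40.1 CPM and that of 5 mural genes 8.34 to 32.9 CPM, against 64.3 to 339 and 85.6 to 242 CPM in D2 libraries, while 6 cortical excitatory genes summed to 506 to 973 CPM in D1 and 171 to 570 CPM in D2 libraries. Astrocyte genes, 6 in number, summed to 56.9 to 260 CPM in D1 and 108 to 325 CPM in D2 libraries, and 6 interneuron genes to 269 to 444 and 65.7 to 268 CPM. Their part in the members' class differences was not tested.

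In Resilient mice none of the other 9 members passed the test between the classes (edgeR, beside 6.65% of genes; 0 with DESeq2 and 0 with limma-voom), and none was separated, beside 9.7% of genes. At an unadjusted p under 0.05 there was 1, Bcl2l1, beside 15.2% of genes. The log2 differences of the genes that had passed in Control were -0.03 for Hrk (SE 0.102, no test), 0.17 for Bad (SE 0.156) and 0.09 for Bax (SE 0.154). In Susceptible mice Bid and Bax passed, 2 of the 9 members tested, beside 23.9% of genes. Bid was also separated between the classes, beside 8.92% of genes. The log2 difference of Hrk was -0.55 (SE 0.103), given without a p because D2 Susceptible libraries chose it. Bid, which caspase-8 cleaves to link death receptors to mitochondria, had 4.36, 4.81, 4.17, 5.24 and 4.73 CPM in D1 Susceptible and 1.70, 1.94, 2.53, 4.16 and 3.18 CPM in D2 Susceptible, a log2 difference of 0.79 (SE 0.249, adjusted p in edgeR = 0.0212). Its lowest D2 values were in replicates 1 and 2. Bax had 12.7, 10.6, 11.6, 13.2 and 12.01 CPM in D1 and 23.9, 22.2, 12.1, 18.8 and 13.5 CPM in D2 Susceptible, a log2 difference of -0.59 (SE 0.155, adjusted p in edgeR = 0.00639), and there the groups overlapped. Bmf, a BH3-only protein tied to the cytoskeleton, had the widest log2 difference, -1.30 (SE 0.661, adjusted p in edgeR = 0.151).

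Without D2 Susceptible replicates 1 and 2, neither passed: Bid had a log2 difference of 0.53 (adjusted p in edgeR = 0.188) and Bax -0.28 (adjusted p in edgeR = 0.249), and Hrk, not tested, had -0.28. Bid lost its call when either library alone was left out (adjusted p in edgeR = 0.0513 without replicate 1 and 0.0505 without replicate 2). Fitted on the 2 groups compared alone, the log2 differences of Bid and Bax were as large, 0.79 and -0.59, but both missed the threshold (adjusted p in edgeR = 0.150 and 0.105).

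Averaged over the 3 conditions, Hrk and Bax were lower and Bid higher in D1 than in D2 cells, 3 of 10 members beside 29.3% of genes. The log2 differences were -0.33 for Hrk (SE 0.0591, adjusted p in edgeR = 6.96e-05), -0.36 for Bax (SE 0.0890, adjusted p in edgeR = 0.00238) and 0.53 for Bid (SE 0.142, adjusted p in edgeR = 0.0048). That share is close to the background and is no result about the family as a whole. The average includes the D2 Susceptible and D2 Resilient libraries on which Hrk was chosen. The p of Hrk and its place in the count are therefore not free of that choice. All 3 calls held without D2 Susceptible replicates 1 and 2, at log2 differences of -0.23 for Hrk, -0.25 for Bax and 0.46 for Bid (adjusted p in edgeR = 9.93e-05, 0.0145 and 0.00646). The other BH3-only genes had -0.17 (Bbc3), -0.18 (Bcl2l11), -0.13 (Bad) and -0.79 (Bmf; SE 0.374, adjusted p in edgeR = 0.111). Without D2 Control replicate 5, the library with no Bmf count and mixed class markers, Bmf passed too (adjusted p in edgeR = 0.0164). For the guardians the averaged log2 differences were 0.0019 for Bcl2, 0.0086 for Bcl2l1 and -0.07 for Mcl1, with standard errors of 0.0856, 0.0402 and 0.0534. The sign for Bcl2 and Bcl2l1 turned with the scaling (-0.013 and -0.0033 with DESeq2's size factors), and limma-voom called Bcl2 higher in D1 cells (0.19, adjusted p = 0.0104).

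**Figure D2:**
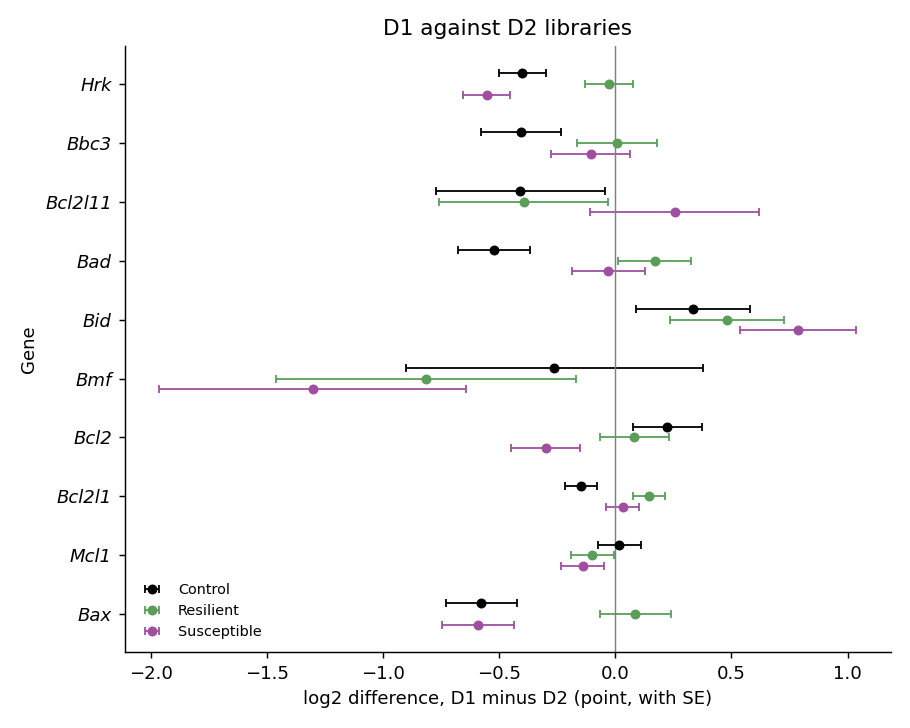
Log2 difference between D1 and D2 cells (D1 minus D2) of the 10 members in each condition, points with bars of 1 SE from the 30-library edgeR model. Hrk and Bax lie left of 0 in Control and Susceptible and near 0 in Resilient, Bid lies right of 0 throughout, and the bars of Bmf are the widest.

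Within D1 cells no member passed in any stress comparison, and no gene of the whole table did either (edgeR, 0% of genes in Susceptible against Control, in Resilient against Control, in Susceptible against Resilient and in both stressed groups against Control). At an unadjusted p under 0.05 there were 2, 2, 1 and 2 members in these comparisons, beside 2.4, 2.6, 3.49 and 1.93% of all genes. DESeq2 called 0 members in each, and limma-voom with sample quality weights called 1, Bad in Resilient against Control. Hrk had a log2 difference of 0.23 in Susceptible against Control (SE 0.102, unadjusted p = 0.030, adjusted p in edgeR = 1), the only member whose 5 libraries lay beyond the other 5, beside 0.888% of genes. With any 1 library left out, D1 Susceptible replicate 1 included, this difference stayed between 0.21 and 0.27. The part of D2 marker RNA, whose median was highest in D1 Susceptible among the D1 groups, was not tested. In Resilient against Control Hrk had 0.16 (SE 0.102), and in both stressed groups against Control 0.19 (SE 0.0892, adjusted p in edgeR = 1.0). In Susceptible against Resilient it had 0.08 (SE 0.102). The sign of each Hrk difference was positive, and its size was between 1 and 3 times its standard error in every one but the last.

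Bad had 18.5, 18.3, 17.9, 17.4 and 18.1 CPM in D1 Resilient, all above the D1 Control range of 11.99 to 16.5 CPM, and was the only separated member there, beside 1.54% of genes. Its log2 difference was 0.41 (SE 0.157, unadjusted p = 0.0138, adjusted p in edgeR = 1), and the 5 Resilient values were the tightest of any group for this gene. In D1 Susceptible, Bad ranged from 13.8 to 21.5 CPM and overlapped Control, with a log2 difference of 0.37 (SE 0.158, adjusted p in edgeR = 1). With both stressed groups together it had 0.39 (SE 0.138, adjusted p in edgeR = 1.0). Bax was at 13.9, 15.6, 13.6, 14.6 and 17.8 CPM in D1 Resilient, above all 5 D1 Susceptible values (10.6 to 13.2 CPM), as 1.12% of genes were separated. Its log2 difference was -0.33 in Susceptible against Resilient (SE 0.155) and 0.33 in Resilient against Control (SE 0.154), both with an edgeR adjusted p of 1. The remaining members overlapped between the D1 groups, with an edgeR adjusted p of 1 in each pair of groups.

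Within D2 cells the contrast of Susceptible with Resilient chose Hrk and is described only. Hrk was higher in Susceptible by a log2 of 0.61 (SE 0.102), and it alone of the members was separated, beside 1.5% of genes, a share from which nothing is read here. Bcl2 had 54.3, 52.9, 29.1, 33.0 and 32.6 CPM in Susceptible and 34.8, 31.9, 26.2, 29.97 and 35.1 CPM in Resilient libraries (log2 difference 0.35). Bax, with the Susceptible values given above, had 13.0, 13.2, 16.9, 13.4 and 14.7 CPM in Resilient libraries (log2 difference 0.35), and Bid 3.70, 5.59, 2.25, 3.93 and 3.94 CPM (log2 difference -0.52). In all 4 genes Susceptible replicates 1 and 2 held the extreme values of their group. Without those libraries the log2 differences were 0.35 for Hrk, -0.0060 for Bcl2, 0.05 for Bax and -0.24 for Bid. In these same replicates 6 oligodendrocyte genes summed to 1893 and 1453 CPM, against 382 to 1363 CPM in the other libraries. The part of epidermal and oligodendrocyte RNA in these values was not tested.

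Against D2 Control, no member tested passed in Susceptible mice (edgeR, beside 0.00516% of genes; Bid and Bcl2 at an unadjusted p under 0.05, as 15.7% of genes were; 0 with DESeq2 and 0 with limma-voom), and none was separated, beside 1.31% of genes. Bid had a log2 difference of -0.64 (SE 0.247, adjusted p in edgeR = 0.216) and Bcl2 0.35 (SE 0.148, adjusted p in edgeR = 0.255), and without replicates 1 and 2 the latter was -0.013. Hrk had 0.39 (SE 0.102) with all libraries and 0.13 without those 2, given without a test. In Resilient against Control no member tested passed either (edgeR, 0% of genes; Bcl2l1 and Bax at an unadjusted p under 0.05, as 4.2% of genes were; 0 with DESeq2 and 0 with limma-voom). Of the members tested, Bcl2l1 was separated there, beside 1.31% of genes, with all 5 Resilient libraries below all 5 Control libraries. Bcl2l1, the main guardian of mature neurons, had 76.9, 86.1, 87.2, 92.3 and 88.8 CPM in Resilient and 98.6, 94.4, 97.1, 103 and 97.6 CPM in Control libraries, a log2 difference of -0.19 (SE 0.0697, adjusted p in edgeR = 1.0). Hrk had -0.22 (SE 0.102, no test), Bax -0.33 (SE 0.154, adjusted p in edgeR = 1.0) and Bad -0.28 (SE 0.156, adjusted p in edgeR = 1.0).

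With both stressed D2 groups together no member passed (edgeR, 0% of genes; 1, Bcl2l1, at an unadjusted p under 0.05, as 6.18% of genes were; 0 with DESeq2 and 0 with limma-voom). Hrk had a log2 difference of 0.08 (SE 0.0887, adjusted p in edgeR = 0.907), which became -0.04 without Susceptible replicates 1 and 2, and Bcl2l1 had -0.14 (SE 0.0600, adjusted p in edgeR = 0.770). Because Hrk was chosen on libraries of these stressed groups, its p here is not free of that choice. The Susceptible and Resilient comparisons share their Control libraries.

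**Figure D3:**
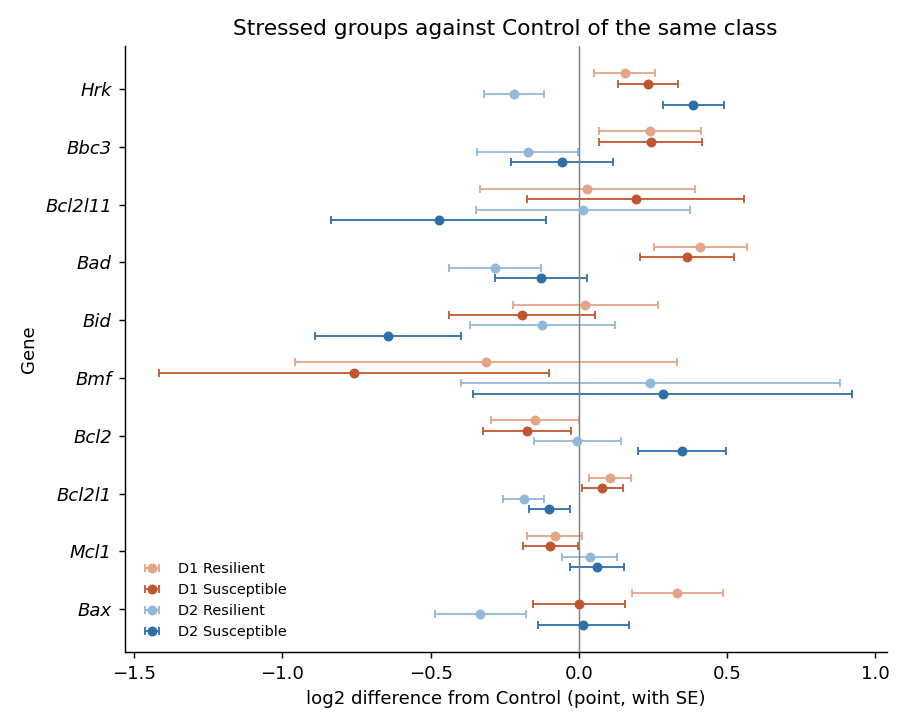
Log2 differences of the 10 members between conditions within D1 and within D2 cells, points with bars of 1 SE from the 30-library edgeR model. In D2 cells Hrk lies at 0.39 for Susceptible and -0.22 for Resilient against Control, and in D1 cells it lies at 0.23 and 0.16.

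Whether stress moved a member differently in the classes was tested as the D1 change minus the D2 change. No member tested passed for Susceptible against Control or for Resilient against Control (edgeR, 0% of genes in both; 0 and 0 with DESeq2; 0 and 1, Bad, with limma-voom). For Resilient against Control, Bad had 0.69 (SE 0.221, adjusted p in edgeR = 0.652), Bax 0.66 (SE 0.217, adjusted p in edgeR = 0.723) and Bcl2l1 0.29 (SE 0.0985, adjusted p in edgeR = 0.763), all 3 at an unadjusted p under 0.05, as 4.99% of genes were. These 3 genes had positive values in D1 and negative values in D2 cells. Hrk had 0.37 (SE 0.145, no test). For Susceptible against Control, Bad had 0.49 (SE 0.222) and Bcl2 -0.52 (SE 0.210), both with an edgeR adjusted p of 0.637 and an unadjusted p under 0.05, as 7.79% of genes were. For Susceptible against Resilient, which contains the contrast that chose Hrk, the values were -0.53 for Hrk and -0.68 for Bax, as a description.

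**Figure D4:**
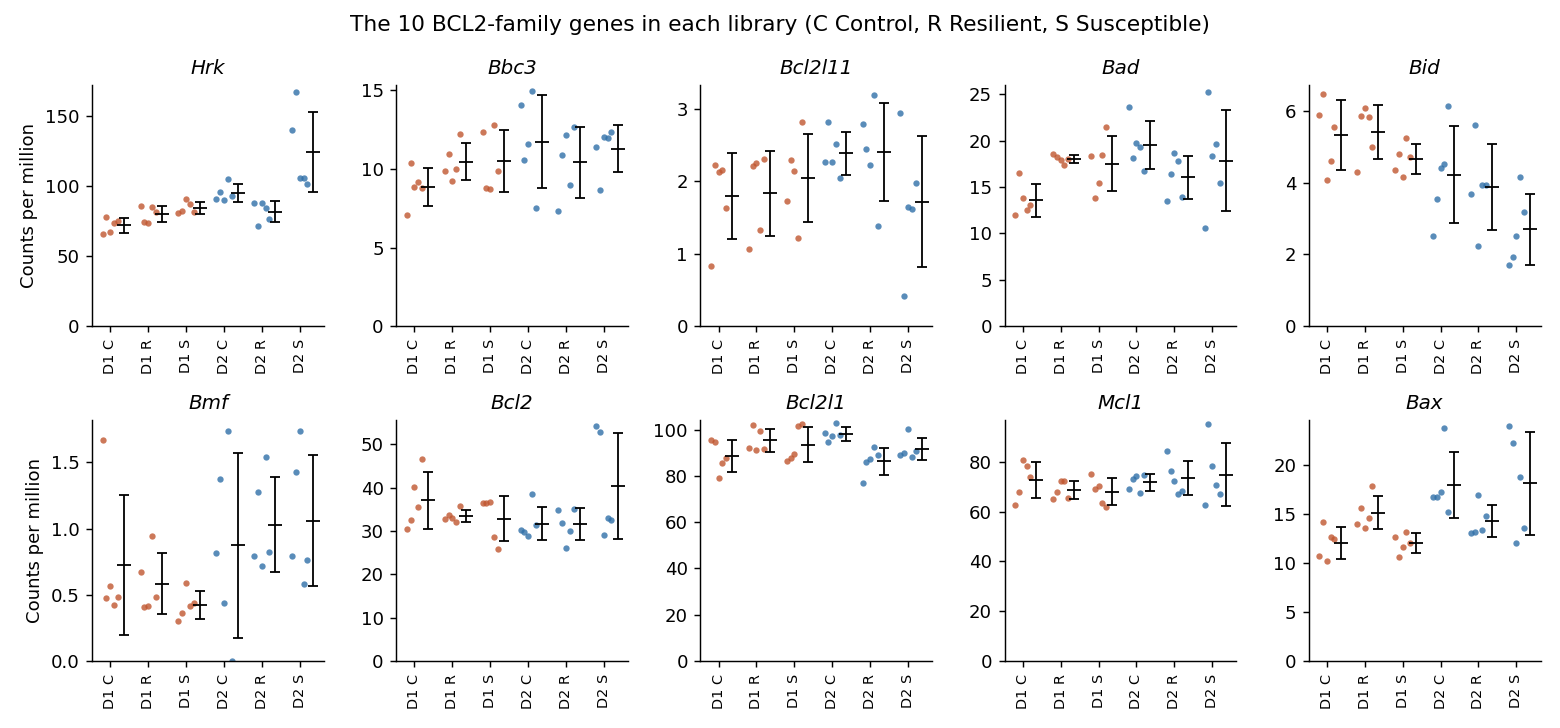
Level of each of the 10 members (TMM-scaled CPM, a separate linear axis for each gene) in the 30 libraries by group, each point 1 library. Bcl2 in D2 Susceptible replicates 1 and 2, at 54.3 and 52.9 CPM, stands above the other libraries, and Bid has its 2 lowest values there, 1.70 and 1.94 CPM.

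Mcl1, a short-lived guardian, had group means from 68.0 to 74.9 CPM and single libraries from 61.8 to 95.3 CPM, the highest being D2 Susceptible replicate 2. Bcl2l1 libraries ran from 76.9 to 103 CPM. Bcl2 ran from 25.8 to 54.3 CPM and Bbc3 from 7.07 to 14.9 CPM. Bcl2l11 had its lowest value, 0.416 CPM, in D2 Susceptible replicate 2, and Bad its lowest and highest, 10.6 and 25.3 CPM, in D2 Susceptible replicates 1 and 2, so these libraries lay at opposite ends for Bad.

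Across the 30 libraries, which share depth, class and the replicates that stood apart, the log2 CPM of Hrk ran with that of Bax (Pearson r = 0.71) and against that of Bid (r = -0.72). Without D2 Susceptible replicates 1 and 2 these were 0.54 and -0.51 over 28 libraries. For Bcl2 the r of 0.43 became -0.26, and for Bad 0.31 became 0.51. Among 8865 genes with a mean of at least 10 CPM, those whose log2 CPM was most like that of Hrk were Smpd3 (r = 0.929), Cacng4 (0.899), Arhgef15 (0.896), Mxd4 (0.894) and Bcl11b (0.894). Smpd3 encodes a neutral sphingomyelinase, Cacng4 an auxiliary subunit of AMPA receptors, Mxd4 a MAX partner and Bcl11b (CTIP2) a transcription factor of medium spiny neurons. Without the 2 libraries their r values were 0.852, 0.766, 0.813, 0.780 and 0.731, and as deviations from group means 0.802, 0.825, 0.723, 0.787 and 0.806. The list depended on the measure and on those libraries: Syndig1l came first without them (r = 0.864) and by rank correlation over all 30 (0.869), and Hdgf on deviations from group means (0.840). Smpd3 then ranked 2, 4 and 18, Cacng4 22, 26 and 4, Arhgef15 4, 5 and 195, Mxd4 12, 2 and 40, and Bcl11b 36, 81 and 15.

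Of 60 other apoptosis genes listed from the pathway, 52 were tested. The 8 not tested for low counts were Bik, Bcl2l10, Bcl2l14, Bcl2a1a, Bcl2a1b, Bcl2a1d, Naip1 and Naip2. In Control mice 3 were higher and 2 lower in D1 than in D2 cells, 9.62% of 52 beside the 8.3% of all genes, and their median log2 difference was -0.03. The 3 higher genes encode the JNK kinases that phosphorylate c-Jun: Mapk8 had a log2 difference of 0.41 (SE 0.0843, adjusted p in edgeR = 0.00168), Mapk10 0.33 (SE 0.0879, adjusted p in edgeR = 0.0151) and Mapk9 0.28 (SE 0.0879, adjusted p in edgeR = 0.0412). Jun, which encodes c-Jun itself, went the other way: 50.2 to 60.7 CPM (median 58.5) in D1 Control and 200.9 to 424 CPM (median 391) in D2 Control, a log2 difference of -2.64 (SE 0.211, adjusted p in edgeR = 2.23e-09). Over all conditions the 15 D1 libraries had 47.7 to 97.3 CPM of Jun and the 15 D2 libraries 145 to 439 CPM, with no overlap. Casp8, the initiator caspase that cleaves BID, had 0 to 17 counts in D1 Control and 47 to 87 counts in D2 Control libraries, a log2 difference of -3.03 (SE 0.914, adjusted p in edgeR = 0.0340) that rests on few reads.

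Leaving out 1 library ended the call of Mapk9 (D1 Control replicates 3, 4 or 5, D2 Control replicates 2 or 4), of Mapk10 (D2 Control replicate 4) and of Casp8 (D1 Control replicates 1, 2, 4 or 5, D2 Control replicates 1, 2 or 4), with edgeR adjusted p-values of up to 0.143, 0.0559 and 0.1002. Averaged over the 3 conditions, 8 of the 52 were higher and 10 lower in D1 cells, 34.6% beside the 29.3% of all genes. The JNK genes had log2 differences of 0.34 (Mapk8), 0.30 (Mapk9) and 0.29 (Mapk10), and Jun -2.60. Foxo1, which encodes a transcription factor known to act on Bcl2l11 and Bbc3, had -0.38 (SE 0.0667, adjusted p in edgeR = 4.82e-05) and Casp8 -2.15 (SE 0.511, adjusted p in edgeR = 0.00173). Mean Casp8 was 0.145 CPM in D1 and 1.20 in D2 Control, but 0.664 in D1 and 0.801 in D2 Susceptible. Foxo1 was at 361 ± 91.6 CPM in D2 Susceptible, 276 ± 18.6 in D2 Control and 266 ± 25.3 in D2 Resilient. Under the alternatives the averaged difference of Foxo1 ran from -0.40 to -0.23. In the average over the 3 conditions, 2 of the 12 other BCL2-family genes tested were higher and 3 lower. Of 14 genes of the release and caspase step 1 was higher and 3 lower. Of 6 caspase inhibitors 0 were higher and 1 lower, and of 20 upstream kinases and transcription factors 5 were higher and 3 lower. No gene of the list passed in D1 Susceptible or Resilient against Control, in D1 Susceptible against Resilient, or in D2 Susceptible or Resilient against Control (edgeR, 0 of 52 in each; 1, 0, 2, 7 and 2 at an unadjusted p under 0.05, where 2.4, 2.6, 3.49, 15.7 and 4.2% of all genes were). DESeq2 called 1 of them in D2 Susceptible against Control and 0 in the other 4 comparisons, and limma-voom 0 in all 5.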

How the data were processed

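Polyribosome RNA from 30 pools of 4 mice was sequenced from SMART-Seq v4 libraries made with 10 ng of RNA of integrity above 8, per the labels' protocols. The deposited values are raw counts of reads per gene; HISAT2, HTSeq and the builds GRCm38 and mm10 are named in the submitters' processing notes, without versions. The deposited table and the 30 library files held the same counts. Their 5 summary lines, 10.1 to 53.3% of reads, named no gene and were left out. Gene symbols came from GENCODE M21 (55154 of 55335 identifiers). Start-region sequences came from RefSeq (GRCm38.p6), and all 10 members matched.

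Samples were grouped by their titles. Genes were filtered with filterByExpr (minimum count 10, minimum total 15), leaving 19368 and setting aside 35967, and scaled by TMM. All 6 groups entered 1 robust quasi-likelihood model (edgeR 4.0.16, R 4.3.3; biological coefficient of variation 41.44%), with contrasts adjusted by Benjamini-Hochberg over all genes at 0.05. "Separated" means that 5 libraries lay beyond the other 5. CPM used TMM-scaled totals, divided by merged exon length where genes are compared. The procedure was tested on simulated data. Alternatives were DESeq2 1.42.0, DESeq2 size factors, no filter, voom with sample quality weights (limma 3.58.1), the replicate number as a block, only the groups compared, and leaving out libraries. The likeness to Hrk without D2 Susceptible replicates 1 and 2 was added after seeing the data. No 2 replicates were copies (chi-square per degree of freedom 13.7 to 2963).

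The members, lists and the rule for named genes were chosen with earlier results of these data known. Named were all 10 members, from the pathway list up to 3 higher and 3 lower genes, by lowest adjusted p, in each tested comparison, the 5 genes most correlated with Hrk, and class markers. Microglial genes summed to 22.6 to 71.1 CPM over the 30 libraries.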

Additional observations from a re-analysis of the deposited data

Results flagged for a closer look

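In 5 of the 60 sets of 5 libraries (10 members in 6 groups), 1 library lay farther from the others than Dixon's 95% critical value of 0.71 allows, and chance gives about 1 in 20 such sets. Bbc3 had 8.67 CPM in D2 Susceptible replicate 2, below the 11.4 to 12.3 CPM of its group. This is 1 of the 2 libraries with epidermal RNA. Bmf had 1.67 CPM in D1 Control replicate 1, above the 0.425 to 0.565 CPM of its group. D2 Control replicate 4 was high for both Bcl2, at 38.4 CPM against 28.8 to 31.3 CPM, and Bax, at 23.7 CPM against 15.2 to 17.2 CPM. Bcl2l1 had 100.1 CPM in D2 Susceptible replicate 3, above the 88.2 to 90.6 CPM of its group.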

How the results depend on the processing

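Of 2606 log2 differences of members and named genes under the alternatives, 2518 were counted as unchanged. Many lay far from the threshold and could hardly change sides, so this count says little about how firm the calls were. Tested ones had to keep their direction and, where an adjusted p was given, their side of the threshold. Those without a test had to move by less than 1 within-group SD of log2 CPM, whatever their sign. The class difference of Hrk in Resilient mice thus counted as unchanged, though it ran from -0.054 to 0.021 with 1 library left out. limma-voom called 6 members between the classes in Control and 6 on average, and 1 (Bad) both in D1 Resilient against Control and in its class difference. Between the classes in Susceptible mice neither Bid nor Bax passed with limma-voom, with only the groups compared or without D2 Susceptible replicates 1 and 2. Neither passed without 4 libraries (those and D1 Susceptible replicate 1 and D2 Resilient replicate 5), and Hrk carries no test in that comparison. Leaving out 1 library gave 0 to 4 members in Control, 0 without D1 Control replicate 3 or D2 Control replicate 4. Other apoptosis genes called in Control numbered 16 with limma-voom, 8 without the 2 libraries, 9 without the 4 and 2 to 6 with 1 library left out, and in D2 Susceptible against Control 1 with DESeq2 and 0 to 2 with 1 left out (2 without D2 Susceptible replicate 3). For Hrk, D2 Susceptible against Resilient gave 0.40 with limma-voom, 0.35 without the 2 libraries and 0.32 without the 4, the class difference of that contrast -0.30, -0.27 and -0.23, and both stressed D2 groups against Control -0.031, -0.045 and -0.027. Averaged between the classes, Bcl2 was -0.013 with DESeq2, -0.013 with its size factors and -0.018 to 0.062 with 1 library left out, but 0.14 without the 2 libraries and 0.19 with limma-voom, a call (adjusted p = 0.0104), and Bcl2l1 was -0.0026, -0.0033, -0.018 (limma-voom) and -0.0032 to 0.040. Bcl2 in D2 Susceptible against Control was -0.013 without the 2 libraries and -0.010 without the 4. In Control, the class difference of Bmf ran from -0.82 to 0.16 and that of Mcl1 from -0.0082 to 0.075 with 1 library left out. For these changes the cause was not tested. Bmf and Bcl2l11 had the fewest counts, 0 to 106 and 17 to 217 per library.

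The replicate numbers did not pair the libraries: same-numbered libraries of different groups had correlations of their deviations from -0.324 to 0.227, 9 of 75 above 0.1, and a library correlated best with its own number in 20 of 150 cases. With the replicate block 3 members were called in Control and 3 on average, and 4 other apoptosis genes in Control, Casp8 no longer among them (edgeR adjusted p = 0.0539).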
